A study of Homo sapiens with 4 samples.

Results

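The genes of serine, one-carbon and asparagine synthesis described here are 10 protein-coding genes chosen by symbol, PHGDH, PSAT1, PSPH, SHMT1, SHMT2, MTHFD1, MTHFD1L, MTHFD2, ALDH1L2 and ASNS, of 58735 genes in the count files. All 10 were found by Ensembl gene identifier, and all 10 were abundant enough to be among the 15912 genes tested. The cells were A549, a human lung adenocarcinoma line labelled as alveolar basal epithelium. One group (shRALY, labelled RALY knockdown, 2 libraries) was infected with a lentivirus carrying a hairpin against RALY, which encodes an hnRNP protein that binds RNA, and the other (shControl, labelled WT, 2 libraries) with a control hairpin lentivirus. Both groups were therefore infected, and the time is labelled day 2 in both. The labels do not say that the libraries came from separate cultures, so the spread between these libraries may be technical. Each p-value rests on that spread, estimated in part over all tested genes and not for the gene alone. The labels name no second hairpin, so an effect of the hairpin itself and of RALY loss cannot be told apart.

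Cells make serine from a glycolytic intermediate in a chain of reactions catalysed by PHGDH, PSAT1 and PSPH. Serine hydroxymethyltransferases then split serine into glycine and a one-carbon unit carried by folate, SHMT1 in the cytosol and SHMT2 in mitochondria, and the MTHFD enzymes oxidise, reduce and release that unit for purine, thymidylate and methionine synthesis. ASNS makes asparagine from aspartate and glutamine. Several of these genes are textbook targets of ATF4, the transcription factor of the integrated stress response, which binds a composite C/EBP-ATF element.

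Total counts ranged from 16823605 to 18632787 in the shRALY libraries and from 16745818 to 17587717 in the shControl libraries. RALY, the targeted gene, had 751 and 679 counts in the shRALY libraries, against 2208 and 2272 in the shControl libraries. The 9 epithelial and A549 markers summed to 18920 and 19010 CPM (counts relative to the library size scaled by TMM) in shRALY and to 18103 and 17839 CPM in shControl. Of these, KRT19 (log2 1.71), KRT7 (log2 0.25) and CDH1 (log2 0.47) were called higher by edgeR and AKR1C1 (log2 -0.56) lower, and EPCAM was low, at 2.29 to 3.54 CPM. The 5 immune markers summed to 5.14 to 8.32 CPM, nearly all from CD14, with CD3E and LYZ at no counts in any library. The 4 fibroblast markers summed to 14.1 and 17.5 CPM in shRALY and to 19.0 and 19.1 CPM in shControl, mostly from COL1A1, and the 3 endothelial markers to at most 0.822 CPM in any library. The 4 markers of mature alveolar type 2 cells summed to at most 1.85 CPM. The part of these markers in the results was not tested. The 10 genes together took 0.104% and 0.103% of counts in shRALY, against 0.101% and 0.100% in shControl.

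The serine and one-carbon genes did not move in a single direction. SHMT1 and MTHFD1, which act in the cytosol, fell in shRALY, while ALDH1L2 and MTHFD2 of the mitochondria rose, and SHMT2 and MTHFD1L of the mitochondria did not pass the test. In serine synthesis PSAT1 and PSPH rose and PHGDH, the enzyme before them, fell. In all, 4 of the 10 genes were higher, 3 lower and 3 did not pass, by edgeR's quasi-likelihood test at an adjusted p under 0.05. Across all tested genes 20.6% were higher and 20.4% lower, or 41% in either direction. The median log2 fold change of the 10 genes was 0.35, against -0.01 for all tested genes, with a range of -1.39 to 1.42. For 9 of the 10 genes the groups did not overlap in CPM, as was the case for 69.7% of all tested genes. In these bulk libraries fewer cells with a transcript and less of it per cell cannot be told apart, and a change counts only against the rest of the same library.

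**Figure D1:**
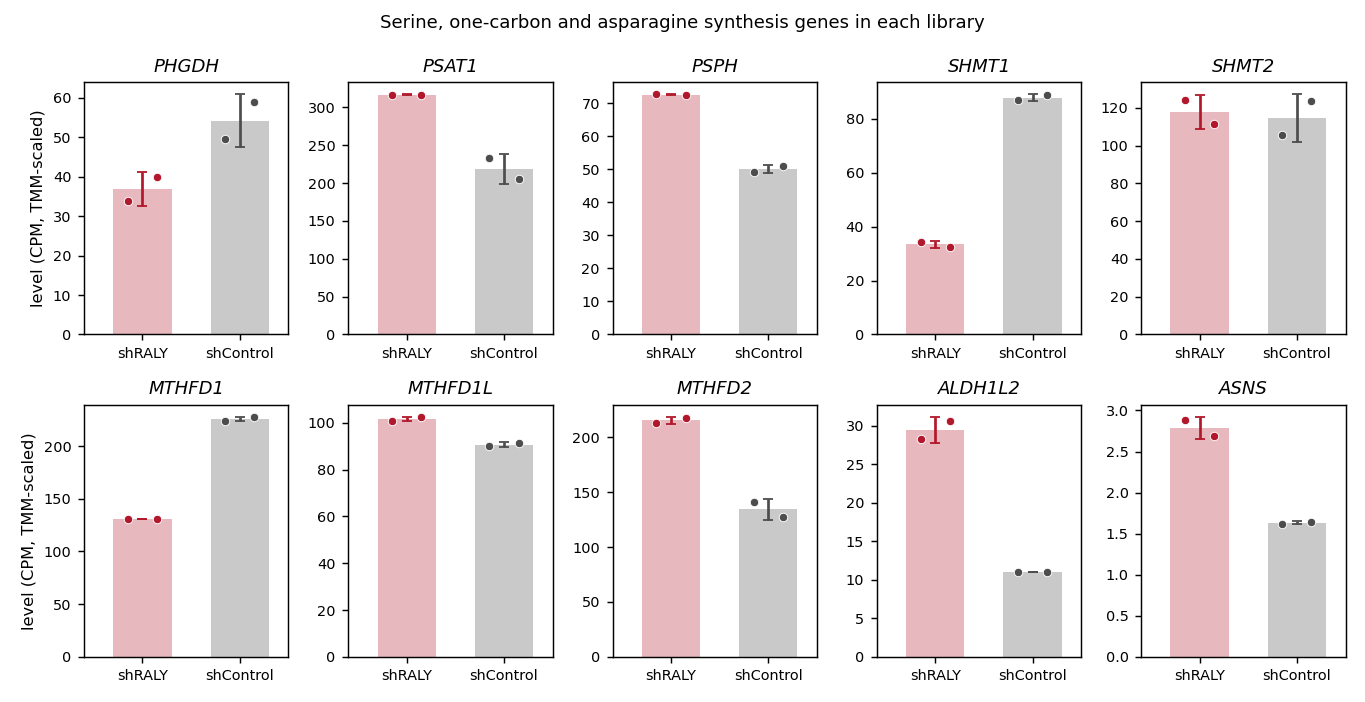
Level of each of the 10 genes, in CPM scaled by TMM, in the 2 shRALY libraries (red, left) and the 2 shControl libraries (grey, right); points are libraries, bars the means and error bars the SD. SHMT1, MTHFD1 and PHGDH were lower in both shRALY libraries than in either shControl library, and the points overlap between groups for SHMT2 alone.

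The promoters of 7 of the 10 genes are given in the RefSeq-derived table on GRCh38.p14, each window running from 250 bases before an annotated start to 50 after it; PSPH, SHMT2 and ALDH1L2 are the others. They were searched on both strands for the core of the C/EBP-ATF element, written TGATGNAA, and for the CCAAT box, written CCAAT. The first word was found in windows of 2 of the 7 genes, ASNS and MTHFD1L, and in 3.62% of all 35116 promoter windows. CCAAT was found in windows of 6 of the 7, all but ASNS, and in 34.6% of all windows. The 7 genes were counted by a match in any of their windows, and ASNS and MTHFD1L have several, while the shares are per window. The counts of genes and the shares are therefore not on the same basis, and no enrichment was tested. No match of one word overlapped a match of the other in these windows. Both genes with the first word are shown, on the coding strand, with every match to either word in capitals. A match describes the letters and does not show binding.
ASNS (chr7:97872359-97872658, minus strand): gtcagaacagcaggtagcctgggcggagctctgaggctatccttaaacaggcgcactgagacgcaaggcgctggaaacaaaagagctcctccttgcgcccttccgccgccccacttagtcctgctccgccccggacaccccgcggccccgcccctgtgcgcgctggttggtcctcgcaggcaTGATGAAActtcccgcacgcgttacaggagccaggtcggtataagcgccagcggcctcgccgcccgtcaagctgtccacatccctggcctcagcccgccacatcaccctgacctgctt
MTHFD1L (chr6:150866197-150866496, plus strand): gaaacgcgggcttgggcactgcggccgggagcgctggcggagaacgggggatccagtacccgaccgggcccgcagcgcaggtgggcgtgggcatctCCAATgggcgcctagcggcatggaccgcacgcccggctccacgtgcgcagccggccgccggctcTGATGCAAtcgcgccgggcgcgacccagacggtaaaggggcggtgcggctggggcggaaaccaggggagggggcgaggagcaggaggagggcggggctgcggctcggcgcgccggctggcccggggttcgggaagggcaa

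In the ASNS window shown, 1 of 2 in the table for that gene, TGATGAAA begins 68 bases before that window's start site, and the other ASNS window holds neither word. In the MTHFD1L window shown, 1 of 4 in the table for that gene, TGATGCAA begins 90 bases before the start site. The same word lies in 2 further, overlapping MTHFD1L windows, and the fourth has none. Neither ASNS nor MTHFD1L passed the test, so the word was present in 2 genes with no call and in none of the 5 called genes with a window. PSPH and ALDH1L2, both called higher, had no window, and bases outside the windows were not searched. ASNS rested on at most 53 counts a library. The tally therefore cannot relate the word to the calls. The pair with opposite changes at neighbouring steps of serine synthesis, PSAT1 (higher) and PHGDH (lower), and the opposite pair SHMT1 (lower) and MTHFD2 (higher) are shown for comparison, with CCAAT matches on either strand in capitals.
PSAT1 (chr9:78296875-78297174, plus strand): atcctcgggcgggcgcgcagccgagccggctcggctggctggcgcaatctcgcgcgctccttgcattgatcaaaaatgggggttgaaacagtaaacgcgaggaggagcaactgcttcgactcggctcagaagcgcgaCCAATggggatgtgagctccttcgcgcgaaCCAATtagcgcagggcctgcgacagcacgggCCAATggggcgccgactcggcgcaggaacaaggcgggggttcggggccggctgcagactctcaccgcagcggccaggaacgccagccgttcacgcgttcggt
PHGDH (chr1:119711684-119711983, plus strand): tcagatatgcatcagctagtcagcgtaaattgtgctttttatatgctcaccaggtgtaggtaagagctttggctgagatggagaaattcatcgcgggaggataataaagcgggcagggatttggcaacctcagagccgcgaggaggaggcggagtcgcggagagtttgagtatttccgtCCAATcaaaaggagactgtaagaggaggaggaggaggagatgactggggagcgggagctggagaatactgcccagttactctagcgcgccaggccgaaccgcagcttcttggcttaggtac
SHMT1 (chr17:18363501-18363800, minus strand): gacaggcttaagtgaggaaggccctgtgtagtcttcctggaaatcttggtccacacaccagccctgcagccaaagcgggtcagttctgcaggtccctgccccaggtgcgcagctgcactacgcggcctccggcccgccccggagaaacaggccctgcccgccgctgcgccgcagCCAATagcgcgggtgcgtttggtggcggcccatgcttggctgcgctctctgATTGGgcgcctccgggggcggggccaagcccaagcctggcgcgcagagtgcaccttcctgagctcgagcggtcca
MTHFD2 (chr2:74198365-74198664, plus strand): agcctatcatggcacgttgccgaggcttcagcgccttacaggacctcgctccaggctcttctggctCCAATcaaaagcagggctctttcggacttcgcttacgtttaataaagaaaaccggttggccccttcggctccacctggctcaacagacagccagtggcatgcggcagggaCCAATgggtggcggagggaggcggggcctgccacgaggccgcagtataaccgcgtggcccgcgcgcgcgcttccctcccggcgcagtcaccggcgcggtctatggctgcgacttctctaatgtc
The CCAAT box occurred 3 times in the PSAT1 window and 1 time in the PHGDH window, and 2 times each in the SHMT1 and MTHFD2 windows. It was thus present in genes called in both directions.

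The serine synthesis genes changed in opposite directions. PSAT1, the aminotransferase of the middle step, lies on chromosome 9 at 78297143 to 78330093 (GRCh38, GENCODE 29, as for the other genes) and was the most abundant of the 10 genes. It stood at 316 and 317 CPM in the shRALY libraries, against 233 and 205 CPM in the shControl libraries. Both shRALY libraries were above both controls, and PSAT1 rose 1.45-fold (log2 fold change 0.53, SE 0.10; edgeR adjusted p = 2.74e-04). PSPH, the phosphatase of the last step (chromosome 7, 56011051 to 56051604), had 72.6 and 72.5 CPM in shRALY and 49.1 and 51.0 CPM in shControl. The shRALY values nearly coincided and lay apart from the controls, and PSPH rose 1.45-fold (log2 0.54, SE 0.11; edgeR adjusted p = 5.50e-04).

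PHGDH, the dehydrogenase that commits the glycolytic intermediate to serine (chromosome 1, 119648411 to 119744226), was at 33.7 and 39.9 CPM in shRALY, against 49.5 and 58.9 CPM in shControl. The groups did not overlap, although each varied more between its libraries than for PSPH. PHGDH fell 1.47-fold, to 67.8% of the shControl level (log2 -0.56, SE 0.13; edgeR adjusted p = 0.00132). With shRALY replicate 1 left out PHGDH no longer passed, at log2 -0.44 and an edgeR adjusted p of 0.110. The ratio of PSAT1 to PHGDH, each as CPM per kb of exon, was 39.5 and 33.5 in the shRALY libraries and 19.9 and 14.6 in the shControl libraries. Its mean was thus 2.12 times as high in shRALY, and the groups did not overlap. The longest transcript of each gene was also used as its length, a choice made after seeing the data. The ratio was then 13.6 and 11.6 in shRALY and 6.85 and 5.05 in shControl. The length cancels in the factor between groups, which is therefore the same by construction.

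The enzymes that split serine into glycine and a one-carbon unit differed between compartments. SHMT1, the cytosolic form (chromosome 17, 18327860 to 18363563), had 34.4 and 32.4 CPM in shRALY, against 87.1 and 88.8 CPM in shControl. It showed the largest fall of the 10 genes, 2.63-fold, to 38.0% of the shControl level (log2 -1.39, SE 0.12; edgeR adjusted p = 1.40e-09). Of all tested genes, 8.72% had a larger absolute log2 fold change. SHMT2, the mitochondrial form (chromosome 12, 57229327 to 57234935), was at 124 and 112 CPM in shRALY and at 106 and 124 CPM in shControl. The groups overlapped, and SHMT2 did not pass, at log2 0.04 (SE 0.11; 95% interval -0.19 to 0.28; edgeR adjusted p = 0.807). Its direction changed with the library left out, from log2 -0.07 without shControl replicate 1 to 0.17 without shControl replicate 2.

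The ratio of SHMT2 to SHMT1, as CPM per kb of exon within a library, was 5.43 and 5.18 in shRALY, against 1.83 and 2.09 in shControl. The mean ratio was 2.71 times as high in shRALY. With the longest transcripts as lengths it was 2.91 and 2.78 in shRALY, against 0.981 and 1.12 in shControl. With 2 libraries a group no permutation test can reach the threshold, so the ratios are given as descriptions. A ratio within a library does not depend on the scaling of the libraries.

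The cytosolic folate enzyme MTHFD1, which interconverts formyl-, methenyl- and methylene-tetrahydrofolate as a single trifunctional protein, fell. It lies on chromosome 14 at 64388031 to 64463457. It stood at 131 and 131 CPM in the shRALY libraries and at 224 and 227 CPM in the shControl libraries. Libraries within a group were close for this gene, and the fall was 1.72-fold (log2 -0.78, SE 0.10; edgeR adjusted p = 1.81e-06). Genes annotated on the opposite strand overlap 11.0% of its exonic bases.

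Among the 10 genes, the mitochondrial folate enzymes were higher or without a call. Outside the 10 genes, MTFMT, which also acts in mitochondria, was called lower (log2 -0.73), as given below. ALDH1L2, which oxidises formyl-tetrahydrofolate to carbon dioxide with formation of NADPH (chromosome 12, 105019784 to 105084577), had 28.3 and 30.7 CPM in shRALY, against 11.0 and 11.0 CPM in shControl. It showed the largest rise of the 10 genes, 2.67-fold (log2 1.42, SE 0.15; edgeR adjusted p = 8.26e-08), and 8.43% of tested genes had a larger absolute change. MTHFD2, the methylene-tetrahydrofolate dehydrogenase and cyclohydrolase of proliferating cells (chromosome 2, 74198562 to 74217565), was at 213 and 218 CPM in shRALY and at 141 and 127 CPM in shControl. Both shRALY libraries lay well above both controls, and MTHFD2 rose 1.60-fold (log2 0.68, SE 0.11; edgeR adjusted p = 1.65e-05).

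Genes on the opposite strand, chiefly SLC4A5, overlap 33.2% of the exonic bases of MTHFD2, and the strand setting of the counting is not given in the sources used here. SLC4A5 itself had 10 and 18 counts in shRALY and 6 and 6 in shControl, and the part of shared bases in the MTHFD2 change was not tested. Of the coding bases of MTHFD2, 8.29% are overlapped.

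MTHFD1L, the mitochondrial synthetase that releases formate (chromosome 6, 150865549 to 151101887), had 101 and 102 CPM in the shRALY libraries, against 89.9 and 91.5 CPM in the shControl libraries. The groups did not overlap, but the difference was small, at log2 0.16 (SE 0.11, 95% interval -0.06 to 0.39), and did not pass (edgeR adjusted p = 0.240). The ratio of MTHFD1L to its cytosolic relative MTHFD1 was 1.44 and 1.46 in shRALY and 0.749 and 0.752 in shControl. Per kb of exon, MTHFD1L was thus above MTHFD1 in shRALY and below it in shControl. For MTHFD2 over MTHFD1 the ratio was 3.13 and 3.20 in shRALY, against 1.21 and 1.08 in shControl. With the longest transcripts as lengths the shControl ratio of MTHFD2 to MTHFD1 turned below 1, at 0.962 and 0.858, while shRALY stood at 2.49 and 2.54.

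The less abundant paralogs of the mitochondrial enzymes did not pass. MTHFD2L, a paralog of MTHFD2, had 7.62 and 7.40 CPM in shRALY and 8.93 and 8.81 CPM in shControl (log2 -0.24, SE 0.20; edgeR adjusted p = 0.360). MTHFD2 was 56.4 and 59.3 times as abundant as MTHFD2L per kb of exon in the shRALY libraries, against 31.8 and 29.2 times in the shControl libraries. By longest transcript MTHFD2 was 19.96 and 21.0 times as abundant in shRALY and 11.3 and 10.3 times in shControl. ALDH1L1, the cytosolic relative of ALDH1L2, had 22 and 22 counts in shRALY and 9 and 18 in shControl, and did not pass (log2 0.71, SE 0.52; edgeR adjusted p = 0.297). Its log2 fold change was 0.26 without shControl replicate 1 and 1.34 without shControl replicate 2.

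**Figure D2:**
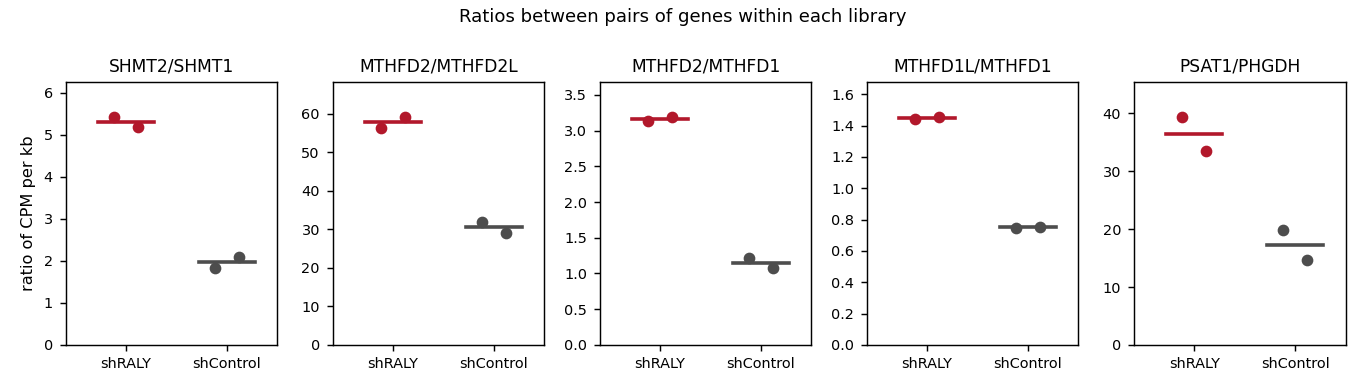
Ratios of CPM per kb of exon between 5 pairs of genes, computed within each of the 2 shRALY libraries (red, left) and the 2 shControl libraries (grey, right); short lines are group means. The shRALY libraries lie above the shControl libraries in each panel, by 1.90 to 2.76 times in the means. Each ratio restates the changes of its genes, and MTHFD1 and MTHFD2 recur, so the panels are not separate results.

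ASNS, the amidotransferase that makes asparagine, was measured on few reads. It lies on the minus strand of chromosome 7 at 97852118 to 97872542. The libraries held 53 and 44 ASNS counts in shRALY, against 29 and 28 in shControl, or 2.88 and 2.69 CPM against 1.62 and 1.64 CPM. Both shRALY libraries were above both controls, at log2 0.77 (SE 0.34; 95% interval 0.06 to 1.48), but ASNS did not pass after adjustment over all genes (edgeR adjusted p = 0.0758). By level it was the lowest of the 10 genes, and 20.3% of tested genes had a lower mean CPM.

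Most coding sequence of ASNS is also annotated as another gene of the same strand. Such genes, chiefly the longer processed transcript AC079781.5 (chromosome 7, 97851688 to 97972985), overlap 44.6% of the exonic bases of ASNS and 96.1% of its coding bases. AC079781.5 had 41 and 40 counts in shRALY and 50 and 32 in shControl. How reads in the shared exons were assigned is not stated, and their part in the low count was not tested, so neither the level nor the fold change of ASNS stands for the whole gene. SLC25A32, the mitochondrial folate transporter, is overlapped over 83.7% of its coding bases on the same strand and was also low, at 0.53 ± 0.29 CPM in shRALY and 0.86 ± 0.05 CPM in shControl (SD, n = 2 each). SLC25A32 was singled out after its values were seen and did not pass, at log2 -0.71 (edgeR adjusted p = 0.381), with -0.22 without shRALY replicate 1 and -1.36 without shRALY replicate 2.

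**Figure D3:**
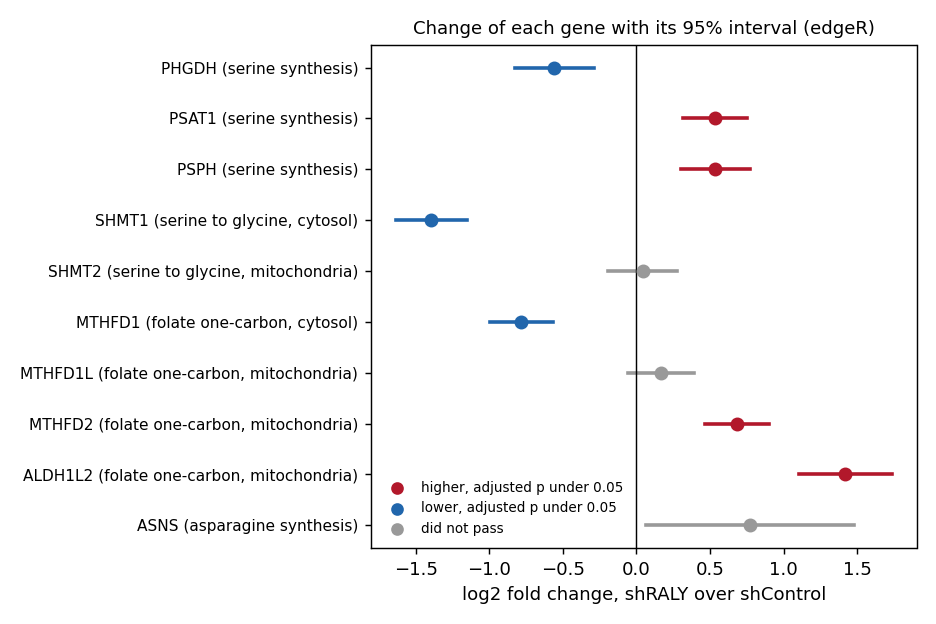
Log2 fold change of each of the 10 genes, shRALY over shControl, with its 95% interval from edgeR; red marks genes called higher, blue genes called lower and grey genes that did not pass. The cytosolic SHMT1 and MTHFD1 lie at -1.39 and -0.78, and the mitochondrial ALDH1L2 and MTHFD2 at 1.42 and 0.68; the ASNS interval is the widest.

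As levels per kb of exon, PSAT1 was highest in both groups, at a mean of 145 CPM per kb in shRALY and 100.1 in shControl. In shRALY MTHFD2 followed at 44.2, then PSPH at 26.3, SHMT2 at 24.4, MTHFD1L at 20.2, MTHFD1 at 14.0, SHMT1 at 4.59, PHGDH at 3.99, ALDH1L2 at 3.47 and ASNS at 0.626 CPM per kb. SHMT2 ranged from 23.1 to 25.7 CPM per kb across the shRALY libraries, just below PSPH at 26.3 in both, and SHMT1, PHGDH and ALDH1L2 all lay between 3.33 and 4.73. In shControl the order after PSAT1 was MTHFD2 at 27.6, MTHFD1 at 24.1, SHMT2 at 23.7, PSPH and MTHFD1L each at 18.1, SHMT1 at 12.1, PHGDH at 5.88, ALDH1L2 at 1.30 and ASNS at 0.366 CPM per kb. There MTHFD1 and SHMT2, and likewise PSPH and MTHFD1L, did not differ beyond their spread. MTHFD1 was the sixth in shRALY and the third in shControl. The length here is the union of all annotated exons, which for PHGDH is 9217 bases, against 3180 bases for its longest transcript. With the longest transcript as the length, PHGDH was at 11.6 CPM per kb in shRALY and 17.0 in shControl, and SHMT1 at 12.1 in shRALY and 31.9 in shControl. The order in shControl then changed: SHMT2 at 33.6, MTHFD1 at 33.1 and SHMT1 at 31.9 CPM per kb came before MTHFD2 at 30.1, which thus moved behind them, and MTHFD1L at 25.2 came before PSPH at 23.0. In shRALY SHMT2 at 34.5 CPM per kb then came before PSPH at 33.3, and the other places were kept. By these lengths SHMT2 did not differ beyond its spread from PSPH in shRALY, nor from MTHFD1, SHMT1 or MTHFD2 in shControl.

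In the list of folate uptake and retention, GGH and SLC19A1 were called and both fell. They act differently on folate, so their falls give no direction for folate retention. Of the 6 genes listed, 5 were tested, 2 fell and none rose, with a median log2 fold change of -0.49. For this and each later list, the share over all tested genes was 20.6% higher and 20.4% lower. No list was tested as a set. GGH, the hydrolase that removes glutamate tails from folate, had 26.9 ± 2.91 CPM in shRALY, against 72.2 ± 13.1 CPM in shControl (SD, n = 2 each). It fell 2.68-fold (edgeR adjusted p = 1.49e-08). SLC19A1, the reduced folate carrier, was lower at 35.0 and 34.1 CPM in shRALY, against 47.8 and 49.4 CPM in shControl. SLC19A1 did not pass when either shRALY library was left out, at an edgeR adjusted p of 0.0587 for replicate 1 and 0.0906 for replicate 2.

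Among 11 other folate enzymes 8 were tested, of which 3 fell and none rose (median log2 -0.21). TYMS, thymidylate synthase, had 25.4 and 23.0 CPM in shRALY and 52.8 and 55.2 CPM in shControl, a 2.23-fold fall (edgeR adjusted p = 1.10e-07); ENOSF1 and other genes on the opposite strand overlap 46.6% of its exonic bases. MTFMT, which formylates the mitochondrial initiator tRNA, fell 1.66-fold (edgeR adjusted p = 5.00e-04). MTR, methionine synthase, was just past the threshold (log2 -0.30, edgeR adjusted p = 0.0455). MTR did not pass with shControl replicate 2 left out, nor with shRALY replicate 1 or 2 left out, at edgeR adjusted p-values of 0.101, 0.479 and 0.183. It did not pass by DESeq2 either (adjusted p of 0.0914), nor in edgeR with RLE size factors (adjusted p of 0.0532) or no filter (adjusted p of 0.0638).

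In the purine pathway, which consumes formyl-tetrahydrofolate, 6 of 12 listed genes were called lower and 2 higher, with a median log2 fold change of -0.29. Across all tested genes 20.4% were lower and 20.6% higher. PAICS, a bifunctional enzyme of the middle steps, had 141 and 140 CPM in shRALY, against 323 and 287 CPM in shControl, and fell 2.18-fold (edgeR adjusted p = 1.11e-08). PRPS2, which makes the ribose donor, fell 1.86-fold and PFAS fell 1.71-fold. The formyl transferase genes GART and ATIC, named after their values were seen, were at log2 -0.18 and -0.21 and did not pass (edgeR adjusted p = 0.199 and 0.126). ATIC passed with shControl replicate 2 left out (log2 -0.29, edgeR adjusted p = 0.00370). ADSL, which acts in IMP and in AMP synthesis, rose 1.63-fold, but did not pass with shRALY replicate 1 left out (edgeR adjusted p of 0.0771); other genes share 28.4% of its 50-base words. GMPS, which makes GMP, fell by 0.42 on the log2 scale, but leaving out shRALY replicate 1 or 2 gave edgeR adjusted p-values of 0.161 and 0.0700.

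In serine and glycine handling beyond the 10 genes, 12 of 13 listed genes were tested, 3 rose and 2 fell (median log2 0.17). SDSL, a serine dehydratase-like gene, rose 2.09-fold, with 19.7 CPM in both shRALY libraries, against 9.16 and 9.75 CPM in shControl (edgeR adjusted p = 1.82e-05). SFXN3, of the sideroflexin family of mitochondrial serine carriers, rose 1.67-fold (edgeR adjusted p = 3.44e-05). GLDC, the decarboxylase of the glycine cleavage system, fell 1.56-fold to 20.1 and 23.6 CPM in shRALY, against 34.7 and 33.3 CPM in shControl, but did not pass with shRALY replicate 1 left out (edgeR adjusted p of 0.0651). The neutral amino acid transporter SLC1A5 was higher at log2 0.36, but leaving out shRALY replicate 1 or 2 gave edgeR adjusted p-values of 0.0902 and 0.183. Opposite-strand genes overlap 23.8% of the exonic bases of SLC1A5. Serine racemase (SRR) was lower at log2 -0.53. SRR did not pass with shControl replicate 1 left out (log2 -0.33) or with shRALY replicate 1 or 2 left out, at edgeR adjusted p-values of 0.263, 0.195 and 0.180. It did not pass by DESeq2 (adjusted p of 0.121) or in edgeR with no filter (adjusted p of 0.0530), and 34.7% of its exonic bases are overlapped on the other strand.

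Of 13 methionine cycle, transsulfuration and polyamine genes, 11 were tested, 1 rose and 3 fell (median log2 -0.02). AMD1, the decarboxylase that feeds polyamine synthesis, fell 1.74-fold (edgeR adjusted p = 4.53e-06) and AHCYL1, an adenosylhomocysteinase-like protein, 1.68-fold (edgeR adjusted p = 3.67e-06). AHCY, which hydrolyses adenosylhomocysteine, fell by 0.31 on the log2 scale, but leaving out shRALY replicate 1 or 2 gave edgeR adjusted p-values of 0.227 and 0.291. CBS, the entry to transsulfuration, was higher at log2 0.57. CBS did not pass with shControl replicate 2 left out (log2 0.40) or with shRALY replicate 1 or 2 left out, at edgeR adjusted p-values of 0.141, 0.0995 and 0.138, nor by DESeq2 (adjusted p of 0.0707). Of its words 92.3% are shared, most with CBSL.

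Around asparagine, 13 of 14 listed genes of asparagine, aspartate, glutamine and proline handling were tested, 2 rose and 3 fell (median log2 -0.05). ASRGL1, an asparaginase, had 2.45 and 3.42 CPM in shRALY, against 10.2 and 11.3 CPM in shControl, and fell 3.66-fold (edgeR adjusted p = 1.01e-06); 28.1% of its words are shared with other genes. GLUL, glutamine synthetase, fell 1.89-fold (edgeR adjusted p = 6.96e-05). GOT1, the cytosolic transaminase that interconverts aspartate and oxaloacetate, rose 1.47-fold to 74.5 and 78.8 CPM in shRALY, against 55.0 and 49.0 CPM in shControl (edgeR adjusted p = 4.47e-04); 20.9% of its words are shared. NARS2, the mitochondrial asparaginyl-tRNA synthetase, fell by 0.53 on the log2 scale, but did not pass with shRALY replicate 2 left out (edgeR adjusted p of 0.147). PYCR1, of proline synthesis, had 90.7 and 100.6 CPM in shRALY and 56.8 and 79.4 CPM in shControl. Its log2 fold change of 0.49 was 0.26 without shControl replicate 1 and 0.77 without shControl replicate 2, and it did not pass with shRALY replicate 2 left out (edgeR adjusted p of 0.0961).

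All 12 listed reporters of the integrated stress response were higher in shRALY, with log2 fold changes from 0.56 to 4.98. Their median of 2.43 was above the change of each of the 10 genes, but not every reporter was. ATF4 itself, named after its values were seen, was at log2 0.56, close to PSAT1 and PSPH. TRIB3, a pseudokinase, had 372 and 374 CPM in shRALY, against 76.0 and 84.3 CPM in shControl. STC2 rose 6.32-fold and PPP1R15A, a phosphatase subunit that reverses eIF2 phosphorylation, 7.99-fold. ATF3 and DDIT3 had log2 fold changes of 4.93 and 4.98; for DDIT3, 31.6% of exonic bases are overlapped on the opposite strand. Of all tested genes 20.6% were higher and 20.4% lower. Across the 7 lists, 73 of 81 genes were tested, 20 were higher, the 12 reporters among them, and 19 lower. Without shRALY replicate 1 or 2 the number lower was 11.

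**Figure D4:**
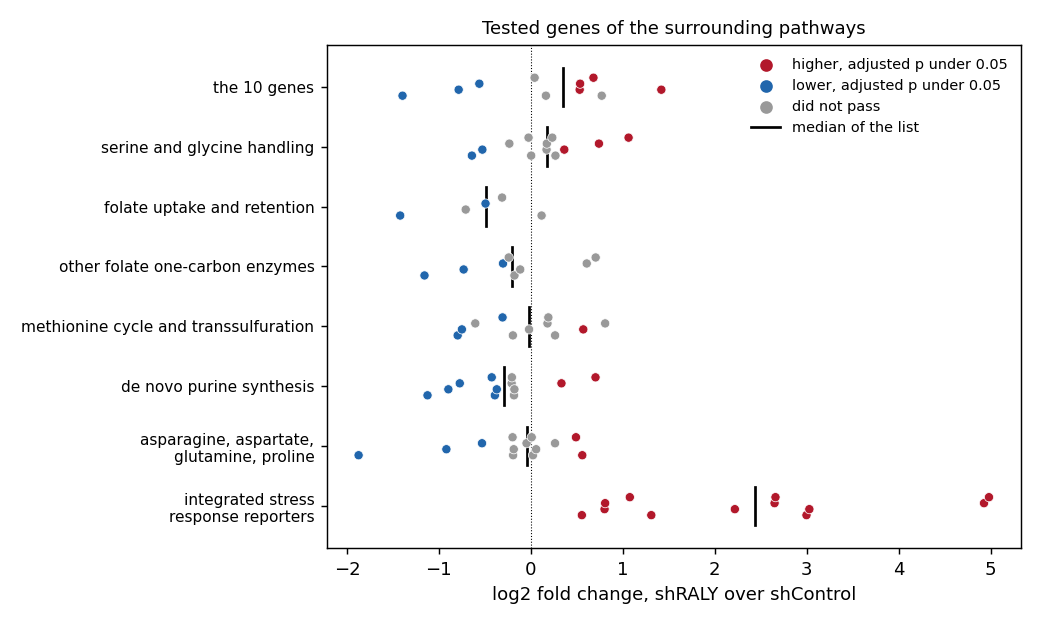
Log2 fold change, shRALY over shControl, of the tested genes among the 10 described here and in 7 lists of surrounding pathway genes; each point is a gene, red called higher, blue called lower and grey without a call, and the black line is the list's median. Points of the folate uptake and retention list reach down to -1.42 (GGH), and all 12 integrated stress response reporters lie above 0.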

How the data were processed

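Each deposited file gives the raw counts of 1 library by Ensembl gene, which the authors did not normalise. The submitters' processing notes name HISAT2 2.0.5, featureCounts 1.5.0-p3, DESeq2 1.20.0 and the hg38 build; the annotation, the strand setting and how reads in overlapping genes were treated is not given in the sources used here. Symbols and exons came from GENCODE release 29, which matched all 58735 identifiers. Per the labels' protocols, RNA was selected on poly-T beads.

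A filter (filterByExpr, minimum count 10, minimum total 15) left 15912 genes. These were scaled by TMM and compared by the robust quasi-likelihood F-test of edgeR 4.0.16 in R 4.3.3, with 2 residual degrees of freedom. P-values were adjusted by Benjamini-Hochberg over all tested genes, with a threshold of 0.05. Each SE was derived from the log2 fold change and its F statistic. The test moderates each gene's variance towards that of other genes, so an SE does not rest on that gene's libraries alone. The test was run on simulated counts with the same dispersion for every gene and few changed genes. Those settings differ from these data, where 41% of tested genes were called, so the check covers the code alone. At this depth 3 counts are 0.161 to 0.179 CPM. Exon overlap and shared words of 50 bases came from the annotation.

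The members and lists were chosen with earlier results of these data known. The text names the 10 genes, RALY, MTHFD2L, ALDH1L1 and, from each list, at most 5 genes by smallest adjusted p; GART, ATIC, ATF4, SLC25A32 and overlapping genes were added after values were seen; an item of the folate list is not reported here. Alternatives were DESeq2 1.42.0, other scalings and filters, no robust estimation, protein-coding genes alone, the replicate block and each library left out.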

Additional observations from a re-analysis of the deposited data

How the results depend on the processing

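Of 119 alternative values for the 10 genes, 1 changed a call, that of PHGDH without shRALY replicate 1; ASNS was too low for the filter of 10 CPM. Each of the 12 alternatives called 4 of the 10 genes higher, and 2 or 3 lower. Over the 46 named genes, 28 of 547 values lost a call, 1 gained one (ATIC) and no called change reversed. Changes of direction without a call were not counted, as for SHMT2, whose log2 fold change ranged from -0.07 to 0.17. Leaving out a library in turn, the number of other pathway genes called lower ranged from 11 to 22 (11 without shRALY replicate 1 or 2, against 19 with all libraries), all genes called from 4020 to 7032, those called higher from 2040 to 3559 and those called lower from 1897 to 3499. With library size alone as the scaling, 2894 genes were higher and 3706 lower, the same calls for the 10 genes, and the median of all genes moved by -0.06. The labels number replicates in both groups, but nothing says that a number marks a shared batch. Deviations of same-numbered libraries correlated at r = 0.25 over 9764 genes with at least 10 CPM. With the replicate number as a block 7258 genes were called, and 4 of the 10 genes were higher and 3 lower. With 1 library left in an arm, that library is assumed to vary like the others. ASNS and ALDH1L1 rest on at most 53 and 22 counts a library. The longest transcript as the length, chosen after seeing the data, moved levels and ratios per kb. It cannot move the factors between groups, since a gene has the same length in every library, so those factors were not checked by it.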
